A study of Mus musculus with 28 samples.

Results

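Ribosome-bound RNA of layer 5 projection neurons was compared between mice in the acute phase of experimental autoimmune encephalomyelitis (EAE) and healthy mice, in 10 of the 28 libraries of the series. The 5 acute IP libraries and the 5 healthy IP libraries were chosen by their titles. IP is the immunoprecipitated fraction: mice of the Glt25d2 BacTRAP line carry a tagged ribosomal protein under control of Glt25d2 (now Colgalt2), a gene used to mark projection neurons of cortical layer 5, and pulling on the tag collects the RNA on the ribosomes of the cells that express it. The acute mice were immunised with the myelin peptide MOG35-55 and their cortex was taken at day 15, against cortex of healthy mice; both groups carry the BacTRAP transgene. The other libraries are the input RNA taken before each pulldown (5 acute and 5 healthy, used below as a comparison, and 4 chronic) and 4 chronic IP libraries from day 30. All were made by poly A enrichment and sequenced on a NovaSeq6000. Nothing in the labels ties each library to a mouse of its own, so the p-values cover only the variation among these libraries, part of which may be technical.

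In EAE, T cells primed against myelin enter the central nervous system and release cytokines, among them interferons. Interferons bind their receptors and switch on interferon-stimulated genes, which include antiviral proteins, immunity-related GTPases and the machinery that presents peptides on MHC class I. Layer 5 projection neurons send long, thick axons to the brainstem and spinal cord, and their axons are rich in neurofilaments.

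The IP libraries were noisier than their input. Totals were 6198088 to 21229550 counts with 9566 to 17995 genes detected in acute IP, and 13082121 to 18657486 counts with 11087 to 14416 genes in healthy IP, against 20714 to 21734 genes in each input library. Log CPM (counts scaled to the size of each library) correlated at 0.67 to 0.96 between acute IP libraries and at 0.75 to 0.86 between healthy IP libraries. The common biological coefficient of variation, edgeR's measure of the spread between libraries, was 1.06 in IP and 0.101 in input. Acute library 1 stood apart from the other acute libraries in ribosomal protein mRNA (19220 CPM in all, against 4901 to 10660 in the others).

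Layer 5 neuron markers summed to more in IP than in input in both groups. The 20 marker genes of these neurons, such as the transcription factor Fezf2 and the thyroid hormone-binding protein Crym, summed to 2219 ± 191 CPM in acute IP and 1787 ± 215 CPM in healthy IP (SD, n = 5 each), which is 1.9 times the sum in acute input and 1.56 times that in healthy input. In IP against input, Fezf2 was higher by 2.07 (log2) in acute mice and by 1.87 in healthy mice (edgeR adjusted p = 5.37e-09 and 7.35e-08). Crym was higher by 1.56 in acute mice and by 1.42 in healthy mice (adjusted p = 2.59e-08 and 2.74e-07). Both genes are examples and lay further above input than the 20 markers together. These p-values rest on 1 spread per gene for IP and input together, although the spread was far larger in IP. Upper layer markers summed to 0.62 times their input in acute and 0.583 times in healthy mice, and oligodendrocyte markers to 0.388 times in acute and 0.468 times in healthy mice. Not every other cell type was below its input: endothelial and mural markers summed to 0.835 times their input in acute and 1.46 times in healthy mice, and leukocyte markers, nearly all of whose sum in IP was Coro1a, to 1.46 times in acute and 1.76 times in healthy mice. Sums above input were not particular to layer 5 markers: glycolysis genes summed to 2.33 times their input in acute and 2.11 times in healthy mice. Colgalt2 itself, whose promoter drives the tag, was at 78.0, 95.5, 64.2, 78.1 and 68.2 CPM in acute IP and at 89.7, 71.6, 46.3, 70.5 and 44.0 CPM in healthy IP. Its groups overlapped, with a log2 change of 0.25 ± 0.24 (SE; adjusted p = 1).

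Of 13914 genes tested in IP, 8 were higher in acute mice (0.0575% of those tested) and 1 was lower (0.00719%) at a Benjamini-Hochberg adjusted p under 0.05 in edgeR's quasi-likelihood test, 9 genes or 0.0647% in all. The higher genes included Ifit3 and H2-K1 of the interferon response, the astrocyte intermediate filament gene Gfap, the neurofilament genes Nefm and Nefh, and the kinase genes Mast3 and Lmtk3. The lower gene was mt-Cytb, the mitochondrially encoded cytochrome b. With each of the 10 libraries left out in turn, Ifit3 (at most 0.102) and Nefh (at most 0.121) lost their call without acute library 5, healthy library 1 or healthy library 3. Nefm (at most 0.121) lost it without acute 2 or 5 or healthy 1 or 3, and Gfap (at most 0.121) without acute 2, 4 or 5 or healthy 1, 3 or 4. The others kept it in few of these fits: H2-K1 (at most 0.174) without acute 1 or 3, Mast3 (at most 0.174) without acute 1 or healthy 2, mt-Cytb (at most 0.197) without acute 1 or healthy 4, and Lmtk3 (at most 0.176) without acute 1. At an unadjusted p under 0.05 there were 871 genes (6.26%). In 186 genes (1.34%) every acute library lay above every healthy library, and in 147 genes (1.06%) every acute library lay below. In the input, where the spread was far smaller, 1823 of 16381 genes (11.1%) were higher in acute mice and 1407 (8.59%) were lower.

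**Figure D1:**
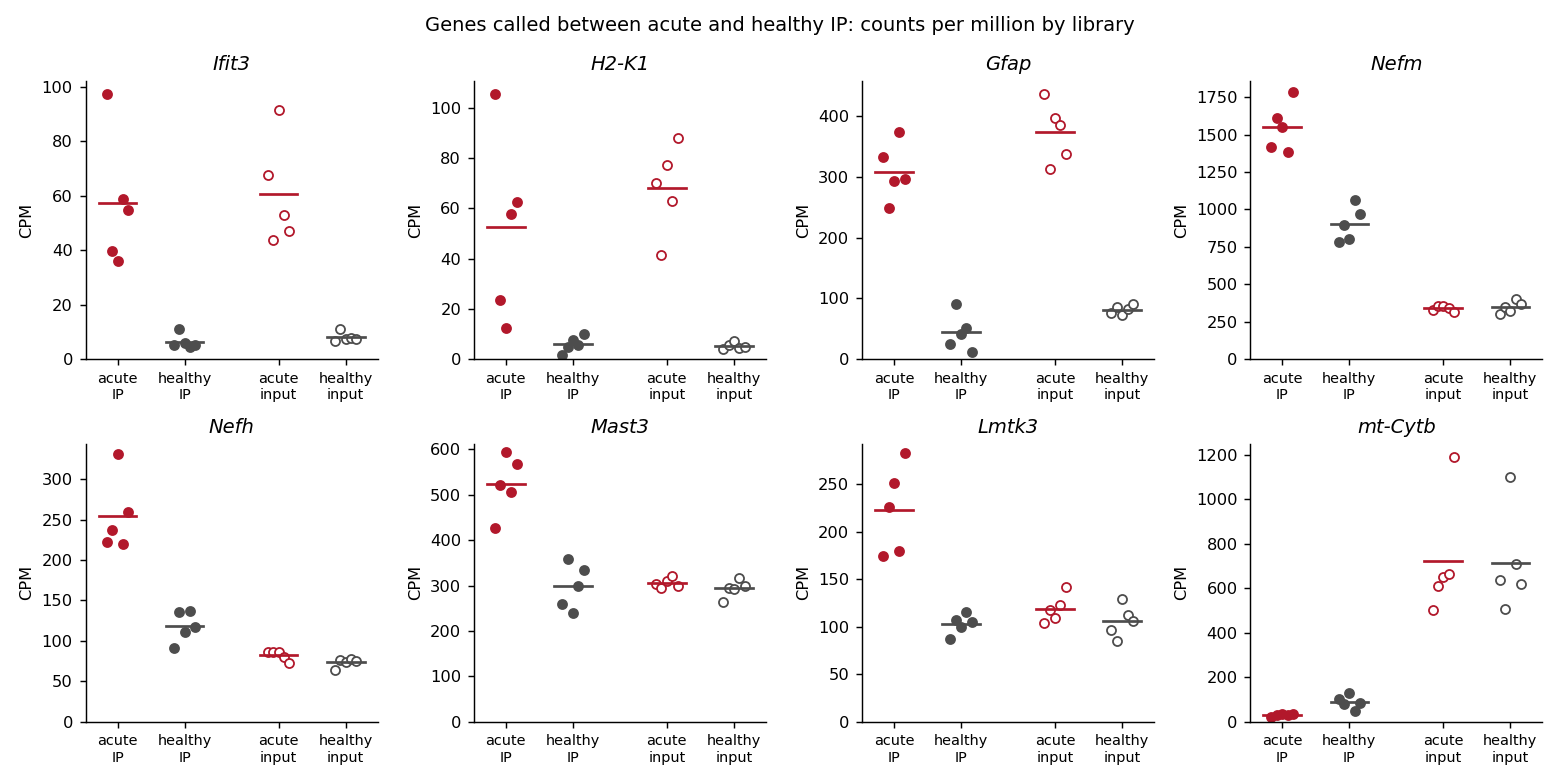
CPM of 8 called genes in each library, with acute to the left of healthy, IP as filled and input as open circles, and a bar at the mean of 5 libraries. In IP the groups do not overlap for any of the 8 genes, while in input Nefm, Nefh, Mast3, Lmtk3 and mt-Cytb have overlapping groups.

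Promoter sequence is shown for some interferon genes because a known DNA element occurs in part of them. The interferon-stimulated response element was searched as GAAA, any 2 bases and GAAA on either strand in the 250 bases before each RefSeq start (GRCm38.p6), with overlapping matches counted apart. It was found for 936 of 27025 genes (3.46%). It was found for 11 of the 27 interferon-stimulated genes with a promoter in the table (40.7%) and for 8 of 9 interferon-inducible GTPases (88.9%). It was also found for 3 of 16 MHC class I genes (18.8%) and for 0 of 4 MHC class II genes. Outside these lists, the response element was found for 6 of 57 ribosomal protein genes and 1 of 22 axonal genes. The ribosomal protein share was thus above that of all genes as well. The second motif, the gamma-activated site TTCNNNGAA, which reads the same on either strand, was found for 2197 of 27025 genes (8.13%), for 5 of 27 interferon-stimulated genes (18.5%) and for 5 of 9 GTPases (55.6%). That site was found for 1 of 16 MHC class I genes (6.25%), 0 of 4 MHC class II genes, 3 of 57 ribosomal protein genes (5.26%) and 0 of 22 axonal genes. The called genes Gfap, H2-K1 and Mast3 had neither motif in this window, and Lmtk3 had 1 gamma-activated site. A match describes the letters and is not evidence of binding. The 4 windows below belong to the called gene Ifit3, to the GTPases Irgm1 and Igtp, and to Bst2, each on its gene's strand with the response element in capitals. All 4 were taken from genes that have the element. They lie at chr19:34583345-34583444 (plus strand), chr11:48871421-48871520 (minus), chr11:58199456-58199555 (plus) and chr8:71537545-71537644 (minus).
Ifit3: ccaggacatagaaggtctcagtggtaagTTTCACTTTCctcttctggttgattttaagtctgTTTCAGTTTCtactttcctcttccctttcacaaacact
Irgm1: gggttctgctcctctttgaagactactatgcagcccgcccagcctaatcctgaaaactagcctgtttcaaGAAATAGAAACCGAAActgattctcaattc
Igtp: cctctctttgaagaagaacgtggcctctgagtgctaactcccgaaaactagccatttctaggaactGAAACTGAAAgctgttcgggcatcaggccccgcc
Bst2: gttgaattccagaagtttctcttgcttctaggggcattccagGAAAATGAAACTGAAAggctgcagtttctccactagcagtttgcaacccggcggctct
Ifit3 holds 2 separate elements, Irgm1 and Bst2 hold 2 that overlap, and Igtp holds 1 at 24 bases from the start.

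Ifit3, which encodes an antiviral protein with tetratricopeptide repeats, was at 97.5, 39.7, 36.1, 58.6 and 54.8 CPM in acute IP, against 5.09, 10.9, 5.81, 4.32 and 5.18 CPM in healthy IP. No library of the groups overlapped. Its log2 change was 3.20 ± 0.50 (adjusted p = 0.0169), against 2.92 in input. H2-K1, a heavy chain of MHC class I, was at 106, 23.7, 12.4, 57.7 and 62.7 CPM in acute IP and at 1.68, 4.66, 7.73, 5.59 and 9.77 CPM in healthy IP. The acute libraries spread widely and the lowest of them was just above the highest healthy library. The log2 change was 3.16 ± 0.60 (adjusted p = 0.0497), against 3.71 in input. H2-K1 belongs to a family of near-identical genes, so its reads may be split between relatives. Neither change differed detectably between IP and input (adjusted p = 1 for Ifit3 and 0.986 for H2-K1).

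Across the interferon-stimulated genes, 2 of 35 tested members were called higher in IP and 0 lower, and 33 of 35 had a positive change, with a median log2 change of 2.48 against -0.04 over all genes tested. Of the 37 genes listed, 11 were at 0 in all healthy IP libraries. Such a gene can pass the count filter through acute IP alone and can then only rise, so its sign is no support. In 9 members every acute library was above every healthy library, against 1.34% of all genes. In input 37 of 37 members were called higher, with a median of 3.12. The summed level of the list was 579 ± 59.2 CPM in acute IP and 171 ± 16.7 CPM in healthy IP (SD, n = 5 each), and the lowest acute library (488 CPM) was above the highest healthy library (189 CPM). Among members that did not pass the test, Irf9, which joins Stat2 in the complex that binds the response element, was at 18.3 to 39.2 CPM in acute IP and 0 to 12.04 CPM in healthy IP (2.4 ± 0.86, adjusted p = 0.494). Stat2 was at 36.3 to 47.1 CPM in acute IP and 4.23 to 27.4 CPM in healthy IP (1.11 ± 0.42, adjusted p = 0.527).

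Bst2, which encodes the membrane protein tetherin, is named after its values were seen: it had 523 counts over the 5 acute IP libraries, with reads in each, and 0 in the healthy ones, which is at least 193-fold higher if the healthy libraries together are given 3 counts. The same pattern was found in only 2 more of all the genes counted, H2-Aa of MHC class II (453 counts, at least 168-fold) and Phf11d (260 counts, at least 96.2-fold). In the reverse direction 1 gene, the pseudogene Cd63-ps, had reads in all 5 healthy IP libraries (10 counts in all) and 0 in acute IP. Such low genes did not pass the edgeR test (adjusted p = 0.239 for Bst2 and 0.256 for H2-Aa).

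The interferon-inducible GTPases, which attack the vacuoles of intracellular pathogens, had 0 of 12 tested members called in IP, and all 12 had a positive change, with a median of 3.83. Of the 13 genes matched, 3 were at 0 in all healthy IP libraries, where a tested gene can only rise. In 6 of 12 members every acute library was above every healthy library, against 1.34% of all genes. In input 12 of 12 were called higher (median 4.39). Irgm1, a regulator of this family, was at 88.5, 38.1, 96.4, 64.9 and 48.5 CPM in acute IP and at 0, 5.96, 9.64, 8.64 and 2.96 CPM in healthy IP. Its groups were far apart, and the change of 3.62 ± 0.80 had an adjusted p of 0.15. Igtp was at 18.7 to 42.6 CPM in acute IP and 0 to 3.20 CPM in healthy IP (4.04 ± 1.11, adjusted p = 0.274). The list summed to 250 ± 89.6 CPM in acute IP and 24.2 ± 4.55 CPM in healthy IP.

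Antigen presentation was split between members. In MHC class I presentation 1 of 17 tested members was called higher, 15 had a positive change (median 1.24), and 5 had every acute library above every healthy library, against 1.34% of all genes. The peptide transporter genes Tap1 and Tap2 had 9.88 to 16.9 and 9.05 to 20.3 CPM in acute IP, against 0 to 2.67 and 0 to 1.14 CPM in healthy IP (3.64 ± 1.60 and 6.11 ± 1.82, adjusted p = 0.689 and 0.326). The light chain gene B2m was at 34.2 to 71.3 CPM in acute IP and 23.8 to 30.9 CPM in healthy IP, a change of 0.84 ± 0.80 in IP (adjusted p = 1), against 2.25 in input. In MHC class II presentation 0 of 5 tested members were called (median 2.0). In all healthy IP libraries, 2 of the 18 class I and 3 of the 7 class II genes were at 0, where a tested gene can only rise. Cd74, the invariant chain, was at 6.46, 8.30, 16.2, 30.7 and 40 CPM in acute IP, against 0, 1.43, 0, 0 and 0 CPM in healthy IP (6.12 ± 1.42, adjusted p = 0.15).

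Markers of other cells were read beside these genes. The 14 microglia markers summed to 62.1 ± 43.9 CPM in acute IP (10.9 to 114) and 45.3 ± 19.9 CPM in healthy IP (25.1 to 68.5), so the groups overlapped. Of 16 leukocyte markers, 11 were at 0 in all healthy IP libraries and 2 at 0 in all acute ones, with the T cell gene Cd3d among those at 0 in both groups. Zeros depend on detection, which reached 17995 genes in an acute and 14416 in a healthy IP library. The share of all genes at 0 in each group was not counted. The leukocyte markers summed to 339 ± 155 CPM in acute IP and 340 ± 49.9 CPM in healthy IP, of which 331 CPM in either group came from Coro1a. Endothelial and mural markers summed to 67.9 ± 25.4 CPM in acute IP and 116 ± 18.0 CPM in healthy IP. Red blood cell markers summed to 0.598 ± 0.573 CPM in acute IP and 6.22 ± 7.70 CPM in healthy IP. In bulk samples, fewer cells of a type and less RNA per cell cannot be told apart, and the part of these cells in the interferon values was not tested.

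Gfap, the intermediate filament of reactive astrocytes, was at 333, 248, 294, 374 and 296 CPM in acute IP, against 25.1, 91.6, 42.0, 50.5 and 11.6 CPM in healthy IP. The groups did not overlap, and the change was 2.81 ± 0.44 (adjusted p = 0.0282). In input it was 2.20, with 374 ± 48.9 CPM in acute and 81.5 ± 7.74 CPM in healthy mice, and the changes in IP and input did not differ detectably (0.61, adjusted p = 0.799). Gfap was 1 of 14 astrocyte markers called in IP, where 11 of 14 had a positive change (median 0.26; 0.47 without acute library 1, and 0.15 to 0.58 with each library left out in turn). The list summed to 3113 ± 786 CPM in acute IP (2218 to 4053) and 2011 ± 282 CPM in healthy IP (1573 to 2259), which overlap, and to 3943 ± 412 CPM in acute input and 2853 ± 169 CPM in healthy input. The glutamate transporter gene Slc1a2, 1 example that differs from the list, was at 219 ± 84.0 CPM in acute IP and 210 ± 47.2 CPM in healthy IP, and was lower in IP than in input by 1.36 (log2) in acute and 1.33 in healthy mice. The 14 markers together were closer to their input, at 0.79 times in acute and 0.705 times in healthy mice. The part of astrocyte RNA in the Gfap value was not tested.

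Other genes of inflammation and stress had few values outside their spread. C4b, a complement component, was at 16.6, 40.8, 75.9, 57.2 and 102 CPM in acute IP, against 0, 3.66, 5.81, 5.02 and 0 CPM in healthy IP (4.33 ± 1.15, adjusted p = 0.286), and complement as a list had 0 of 7 called. Its median of 1.95 moved with single libraries: it was -0.025 with 3 of 7 positive without acute library 1, 0.021 without acute library 5 and 0.56 without acute library 4. Serpina3n, a serine protease inhibitor of the acute phase, was at 17.7 to 41.8 CPM in acute IP and 4.71 to 12.5 CPM in healthy IP (1.38 ± 0.64, adjusted p = 0.749). The list of NF-kB targets, cytokines and acute phase genes had 0 of 11 called in IP (median 0.26), against 18 of 19 called higher in input (median 1.45). Glucocorticoid response genes had 0 of 16 called in IP (median 0.31) and 13 of 16 called higher in input (median 0.75), among them Fkbp5 (56.1 to 189 CPM in acute IP and 37.1 to 85.5 CPM in healthy IP; 1.02 ± 0.32, adjusted p = 0.38).

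Sting1, the adaptor of cytosolic DNA sensing named in the title of the series, was under the filter on low counts. It had reads in acute libraries 4 and 5 (0.532 and 0.179 CPM) and in 0 of 5 healthy IP libraries. The difference in mean of 0.142 CPM had p = 0.444 in an exact two-sided permutation test over 252 splits, whose smallest possible p is 0.00794, so a change was not detectable at this depth. In input Sting1 was higher in acute mice by 1.71 (log2; edgeR adjusted p = 0.000631). The list of STING and cytosolic DNA sensing genes had 0 of 11 called in IP, with a median of 0.19. Gpx4, the lipid peroxidase that protects cells from ferroptosis, was at 322, 107, 63.4, 159 and 158 CPM in acute IP, against 290, 260, 301, 236 and 310 CPM in healthy IP. Acute library 1 was the highest of all, the other acute libraries were below every healthy library, and the change of -0.79 ± 0.32 did not pass the test (adjusted p = 0.62; -1.19 with an adjusted p of 0.0513 without library 1). Ferroptosis, iron and antioxidant genes had 0 of 26 called and a median of 0.02. The unfolded protein response had 0 of 22 called (median 0.13) and the heat shock response 0 of 15 (median 0.07).

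**Figure D2:**
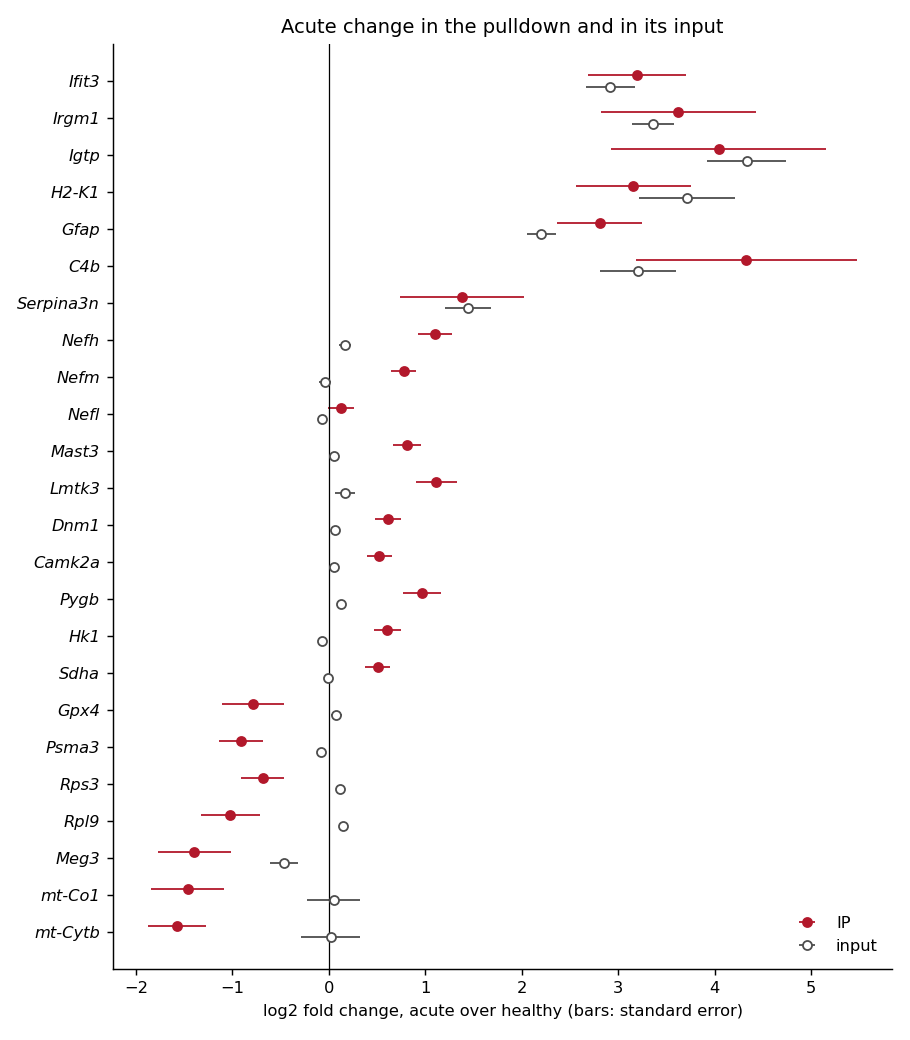
Log2 fold change of acute over healthy in IP (filled) and input (open) for 24 genes, with the standard error as bars. Interferon genes and Gfap lie to the right in both fractions, Nefh, Nefm, Mast3 and Lmtk3 lie to the right in IP with input near 0, and mt-Cytb lies at -1.57 in IP and 0.02 in input.

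The neurofilament genes differed from the interferon genes in having little change in input. Neurofilaments are the space-filling filaments of large axons, built from a light chain (Nefl), a medium chain (Nefm), a heavy chain (Nefh) and alpha-internexin (Ina). Nefm was at 1418, 1611, 1553, 1382 and 1784 CPM in acute IP, against 785, 899, 802, 1063 and 969 CPM in healthy IP. Every acute library was above every healthy library, and the change was 0.78 ± 0.13 (adjusted p = 0.0169). In input Nefm was at 338 ± 18.4 CPM in acute and 347 ± 38.1 CPM in healthy mice (-0.04, adjusted p = 0.709). It was the 1 gene of 16580 (0.00603%) whose change was more positive in IP than in input at an adjusted p under 0.05 (0.82, adjusted p = 0.0492), with 0 more negative and 1901 (11.5%) at an unadjusted p under 0.05 in either direction. To check that call, the IP and the input library of each number were left out together. The call was kept without acute number 1 or healthy number 4. It was lost without any other of the 10 (adjusted p of at most 0.14). The call rests on 1 spread per gene for IP and input together, although the spread was far larger in IP.

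Nefh, also on the list of layer 5 markers, was at 222, 237, 330, 220 and 259 CPM in acute IP, against 91.0, 136, 110, 137 and 117 CPM in healthy IP. The groups were separate, with a change of 1.10 ± 0.18 (adjusted p = 0.0169), against 0.17 in input (adjusted p = 0.0584). The difference between the changes was 0.94 (adjusted p = 0.0706). Nefl was at 773 to 1066 CPM in acute IP and 676 to 963 CPM in healthy IP, with groups that overlap (0.12 ± 0.14, adjusted p = 1), and Ina at 884 CPM on average in acute IP and 611 CPM in healthy IP (0.53). All 3 chains were higher in IP than in input in both groups: in acute mice by 1.40 (Nefl), 2.38 (Nefm) and 1.80 (Nefh), and in healthy mice by 1.19, 1.55 and 0.87 (log2). The layer 5 markers together summed to 1.9 times their input in acute and 1.56 times in healthy mice. Of the 20 markers, 12 had a positive and 8 a negative change in IP. The part of a pulldown that differed between the groups in the neurofilament values was not tested.

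Mast3 and Lmtk3 encode protein kinases expressed in the brain. Mast3, of the microtubule-associated serine/threonine kinases, was at 426, 520, 594, 505 and 567.6 CPM in acute IP, against 260, 357, 240, 298 and 334 CPM in healthy IP. The groups were separate (0.81 ± 0.15, adjusted p = 0.0387), and input was at 306 ± 10.4 CPM in acute and 294 ± 19.2 CPM in healthy mice. Lmtk3, a membrane-anchored kinase, was at 175, 226, 251, 180 and 283 CPM in acute IP, against 86.6, 108, 100.2, 116 and 105 CPM in healthy IP (1.11 ± 0.21, adjusted p = 0.0497), with 119 ± 14.8 CPM in acute input and 106 ± 16.9 CPM in healthy input. In healthy mice neither differed detectably between IP and input (0.20 and 0.14, adjusted p = 0.201 and 0.687), and in acute mice they were higher in IP by 0.96 and 1.09 (adjusted p = 3.26e-08 and 1.61e-05). The difference between the changes had an adjusted p of 0.0706 for either gene. These p-values for IP against input and for the difference rest on 1 spread per gene for both fractions. The part of a pulldown that differed between the groups in the kinase values was not tested.

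The axonal cytoskeleton and motor genes had 2 of 30 members called higher in IP, Nefm and Nefh, and 0 lower, with a median of 0.22 and 20 of 30 positive. In input 1 was called higher and 7 lower (median -0.04). Map1a, a microtubule-associated protein of mature neurons chosen after its values were seen, was at 555, 826, 595, 756 and 848 CPM in acute IP, against 318, 545, 324, 420 and 522 CPM in healthy IP (0.75 ± 0.17, adjusted p = 0.148). The beta-tubulin gene Tubb4a was at 2568 to 3417 CPM in acute IP and 1655 to 2561 CPM in healthy IP (0.43 ± 0.14, adjusted p = 0.389). Sptan1, the alpha chain of brain spectrin, went the other way, at 174, 276, 195, 229 and 168 CPM in acute IP, against 836, 684, 528, 687 and 362 CPM in healthy IP (-1.57 ± 0.57, adjusted p = 0.527), with -0.16 in input.

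Synaptic genes had no called member. Synaptic vesicle and release genes had 0 of 25 called and 21 of 25 positive (median 0.20), and glutamate receptors and postsynaptic scaffolds had 0 of 29 called (median 0.19), against 0 higher and 9 lower of 29 in input (median -0.13). Dnm1, the dynamin that pinches off endocytic vesicles, was at 4029, 6477, 7019, 4902 and 6164 CPM in acute IP, against 3046, 3871, 3622, 4271 and 3822 CPM in healthy IP (0.62 ± 0.14, adjusted p = 0.107). Its lowest acute library, library 1, lay below the highest healthy library. Camk2a, the alpha subunit of the postsynaptic calmodulin kinase, was at 2173 to 3469 CPM in acute IP and 1754 to 2330 CPM in healthy IP (0.53 ± 0.13, adjusted p = 0.174). Voltage-gated ion channels had 0 of 27 called (median -0.01) and immediate early genes 0 of 18 (median 0.07).

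Among enzymes of energy metabolism, Pygb and Sdha had separate groups and did not pass the test. Pygb, brain glycogen phosphorylase, was at 156, 252, 187, 252 and 232 CPM in acute IP, against 114, 121, 120, 126 and 71.6 CPM in healthy IP (0.96 ± 0.19, adjusted p = 0.0686). Sdha, a subunit of succinate dehydrogenase, was at 696, 869, 610.1, 720.2 and 729 CPM in acute IP, against 507, 522, 556, 556 and 413 CPM in healthy IP (0.51 ± 0.13, adjusted p = 0.239). In input the changes were 0.12 for Pygb and -0.01 for Sdha. Glycolysis as a list had 0 of 18 called, 15 positive and 3 with every acute library above every healthy one (median 0.19). The tricarboxylic acid cycle had 0 of 17 called, 12 positive and 2 with every acute library above every healthy one (median 0.07). Of all genes tested 6519 of 13914 had a positive change and 1.34% had every acute library above. Without acute library 1, 2 glycolysis genes and 1 gene of the tricarboxylic acid cycle were called higher (medians 0.12 and 0.04). Hk1, the main hexokinase of the brain, was at 1014 to 1439 CPM in acute IP and 624 to 944 CPM in healthy IP (0.61 ± 0.14, adjusted p = 0.15).

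When the 4089 genes with a mean of at least 50 CPM were tested alone, 14 were higher in acute IP (0.342%) and 4 lower (0.0978%), and Pygb (adjusted p = 0.039) was among them. The further genes called there, all named after their values were seen, included Skiv2l, a helicase of RNA decay, at 151 to 208 CPM in acute IP and 61.2 to 100.4 CPM in healthy IP. They also included Rap1gap, which switches off the small GTPase Rap1, at 600.5 to 733 CPM in acute IP and 311 to 477 CPM in healthy IP. Vgf, a neuropeptide precursor, was at 655 to 1171 CPM in acute IP and 415 to 551 CPM in healthy IP. On the lower side, Rgs4, an inhibitor of G protein signalling, was at 446 to 505 CPM in acute IP and 604 to 814 CPM in healthy IP. In input Rgs4 was lower in acute mice as well, by -0.46 (log2; adjusted p = 0.00201).

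Of the mitochondrially encoded genes 1, mt-Cytb, was called lower in acute IP. It was at 19.2, 31.6, 35.8, 29.9 and 33.1 CPM in acute IP, against 104, 81.5, 128, 49.4 and 82.6 CPM in healthy IP. The groups were separate, and the change was -1.57 ± 0.30 (adjusted p = 0.0497). In input the gene was at 724 ± 269 CPM in acute and 714 ± 228 CPM in healthy mice, more than in IP in either group (IP against input, log2 -4.41 in acute and -2.83 in healthy mice). All 10 tested mitochondrially encoded genes had a negative change in IP, of which 1 was called and 5 had every acute library below every healthy one, against 1.06% of all genes. The median was -1.62, against 0.04 in input, where 0 of 14 were called. The sum over the list was 186 ± 65.3 CPM in acute IP (108 to 256) and 544 ± 208 CPM in healthy IP (306 to 781). That was 0.0391 times the input sum in acute and 0.125 times in healthy mice, so little of this RNA was kept by the pulldown. The part of RNA carried through the pulldown from outside the tagged ribosomes was not tested.

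**Figure D3:**
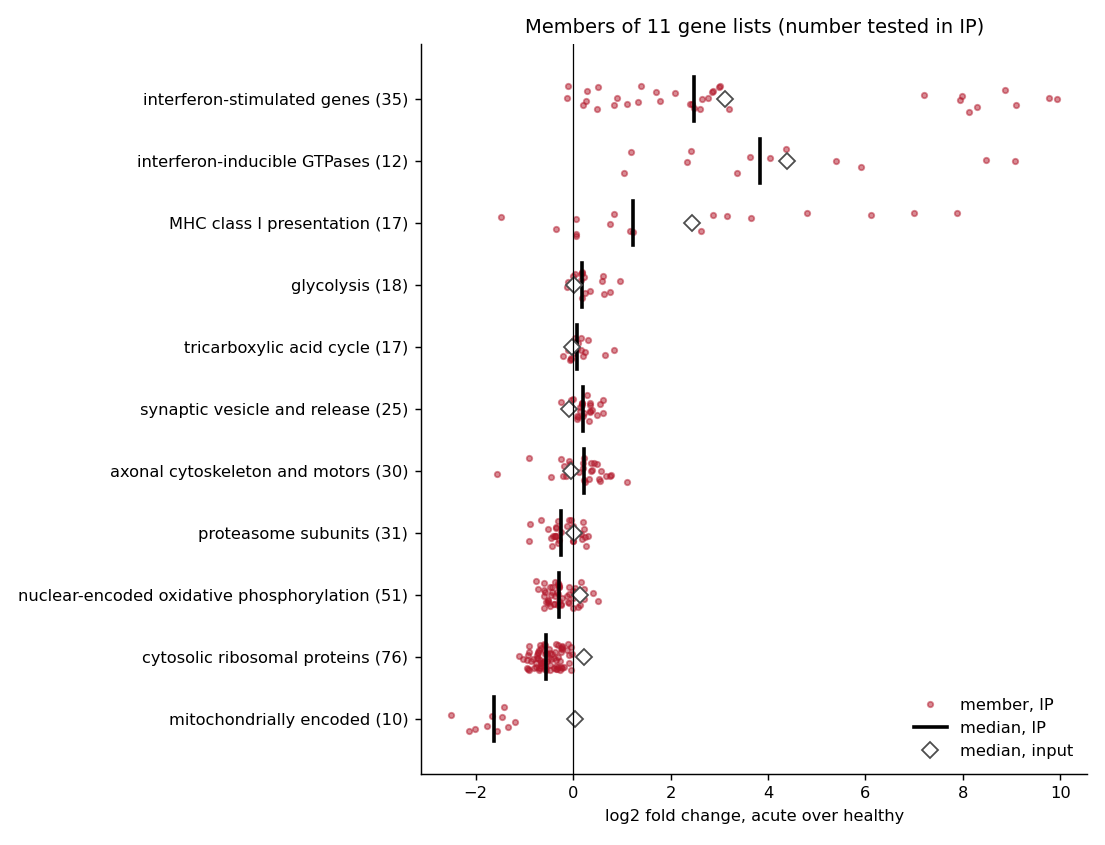
Log2 fold change of acute over healthy in IP for each tested member of 11 gene lists (points), with the IP median as a black bar and the input median as an open diamond. The interferon lists lie to the right in both fractions, and ribosomal protein and mitochondrially encoded genes lie to the left in IP with input medians of 0.23 and 0.04.

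The ribosomal protein, nuclear-encoded oxidative phosphorylation, proteasome and nuclear noncoding RNA lists had no called member. All 76 tested ribosomal protein genes had a negative change, with a median of -0.57 (15 of 76 were positive with the length and GC offset described below, and 7 without acute library 3), and 0 were called. The median was -0.935 without acute library 1, where 3 were called lower, and -0.35 without acute library 3, whereas in input 67 of 77 were called higher (median 0.23). In 0 of 76 did every acute library lie below every healthy one: the list summed to 19220, 6267, 4901, 10660 and 9526 CPM in acute IP and to 14700, 10680, 15540, 11770 and 18050 CPM in healthy IP, so acute library 1 was the highest of all and the others were below every healthy library. Nuclear-encoded oxidative phosphorylation genes had 0 of 51 called and 13 positive (median -0.30; -0.64 with 2 called lower without acute library 1, and -0.13 without acute library 3), against 28 called higher in input (median 0.14). Proteasome subunits had 0 of 31 called (median -0.25; -0.45 without acute library 1 and -0.03 without acute library 3), among them Psma3, at 61.5 to 126 CPM in acute IP and 137 to 218 CPM in healthy IP (-0.91 ± 0.23, adjusted p = 0.198). Nuclear noncoding RNAs had 0 of 10 called (median -0.92). Meg3 was at 38.8, 55.1, 21.5, 40.7 and 34.9 CPM in acute IP, against 157, 122, 49.2, 44.4 and 130 CPM in healthy IP (-1.40 ± 0.38, adjusted p = 0.256).

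**Figure D4:**
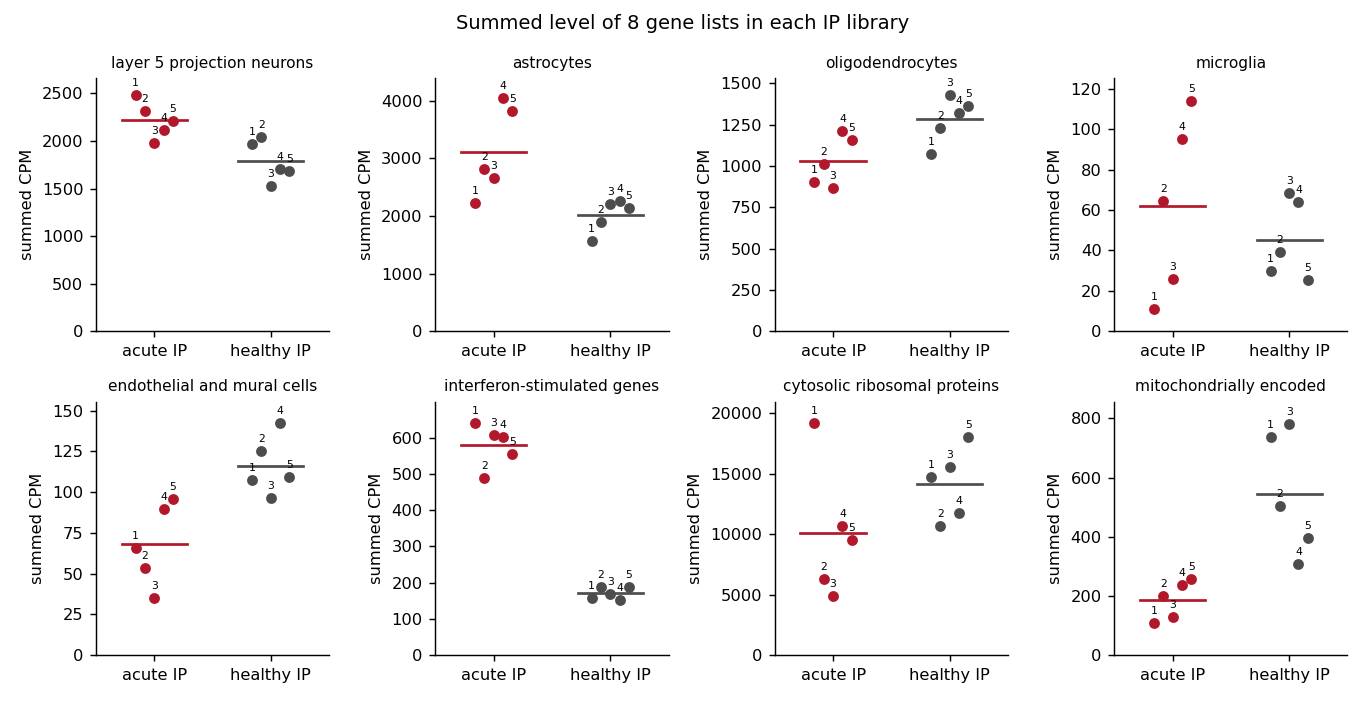
Summed CPM of 8 gene lists in each IP library, acute to the left of healthy, with the library number above each point and a bar at the mean. The interferon-stimulated sum separates the groups, the mitochondrially encoded sum is below 257 CPM in acute and above 306 CPM in healthy libraries, and acute library 1 has the highest ribosomal protein sum.

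Without acute library 1, 39 of 13880 genes were higher in acute IP (0.281%) and 11 lower (0.0793%). The genes called without acute library 1, chosen after their values were seen, included 5 of 30 axonal cytoskeleton and motor genes. These were Nefm, Nefh, Map1a (0.83, adjusted p = 0.0308), Map1b (0.79, adjusted p = 0.0308) and the synaptic vesicle motor Kif1a (0.74, adjusted p = 0.021). Dnm1 (0.72, adjusted p = 0.0128) and Camk2a (0.62, adjusted p = 0.021) were called as well, as was Cntnap1, which anchors the axon to myelin beside the node (1.0, adjusted p = 0.021). The lower genes included 3 of 76 ribosomal protein genes, Rpl9, Rpl17 and Rpl41 (-1.39, -1.26 and -1.77, adjusted p = 0.0238, 0.021 and 0.0168), and the respiratory chain genes Cox4i1 (-1.12, adjusted p = 0.0366) and Atp5h (-1.05, adjusted p = 0.0448). For the difference between the IP and the input change, acute input library 1 was left out as well. That difference was then called more positive for 227 of 16511 genes (1.37%) and more negative for 60 (0.363%).

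Gene length and base composition moved with the change in IP. Genes with every acute library above every healthy one had a median exon length of 4646 bases and 54.9% GC, those with every acute library below had 2675 bases and 46% GC, and all tested genes 3848 bases and 49.9% GC. Across the 5587 genes whose log2 CPM averaged 5 or more, the log2 change had a Spearman correlation of 0.30 with exon length and 0.33 with GC content, given as a description across genes that share the same libraries. With an offset for length and GC, 2 genes were called, among them Ifit3 (3.46, adjusted p = 0.00302), and H2-K1 and Gfap lost their call. Under it Nefh was at 0.90 (adjusted p = 0.0638), Nefm at 0.49 (adjusted p = 0.292), Mast3 at 0.49 (adjusted p = 0.315), Lmtk3 at 0.70 (adjusted p = 0.39) and mt-Cytb at -0.58 (adjusted p = 1). The ribosomal protein median was then -0.26 and the mitochondrially encoded median -0.81, whereas the interferon-stimulated median was 2.72. The part of length and GC in the other values was not tested further.

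**Figure D5:**
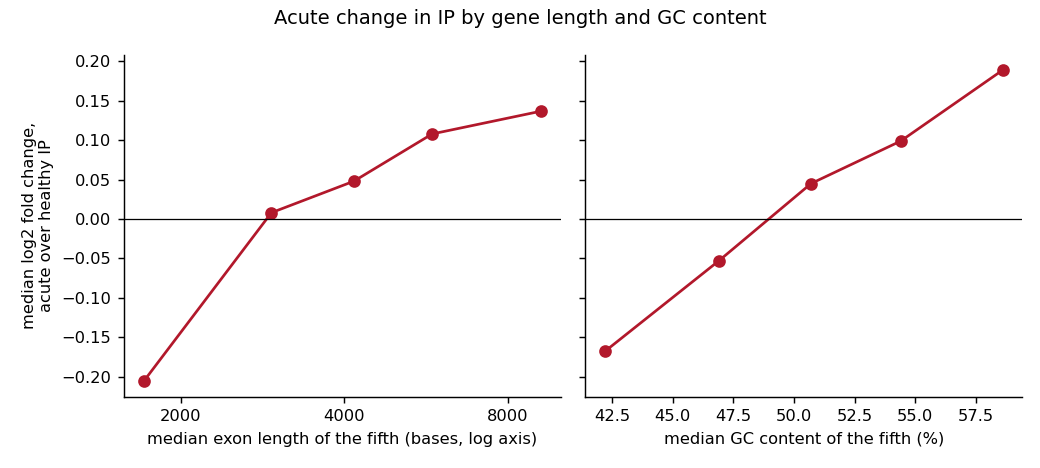
Median log2 fold change of acute over healthy in IP in 5 equal bins of the genes whose log2 CPM averaged 5 or more, by exon length (left, log axis) and by GC content (right). The median was -0.21 in the bin of the shortest and 0.14 in that of the longest genes, and -0.17 in the bin with the lowest and 0.19 in that with the highest GC content.

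The chronic IP libraries, which are compared with the same healthy libraries, are given side by side for called genes. Gfap was at 309 ± 47.1 CPM in acute IP and 209 ± 92.1 CPM in chronic IP, against 44.2 ± 30.5 CPM in healthy IP (SD; n = 5, 4 and 5). Nefm was at 1550 ± 161 CPM in acute IP and 1614 ± 230 CPM in chronic IP, against 904 ± 116 CPM in healthy IP. mt-Cytb was at 29.9 ± 6.37 CPM in acute IP and 38.3 ± 11.8 CPM in chronic IP, against 89.1 ± 29.1 CPM in healthy IP. Chronic against healthy IP, the log2 changes were 2.24 for Gfap (adjusted p = 0.0546), 0.84 for Nefm (0.00695) and -1.22 for mt-Cytb (0.113), and acute was not tested against chronic.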

How the data were processed

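Poly A RNA of IP and input was counted per gene. The deposited values are raw counts per gene made by the authors, per the file headers with featureCounts 1.5.1 on exons grouped by gene, read pairs, no strand, against Ensembl release 79 of GRCm38; STAR 2.4 and DESeq2 are named in the submitters' processing notes. Counts are unstranded, so genes that overlap on opposite strands cannot be told apart, and near-identical relatives may share reads. The header command names 36 alignment files, of which 28 columns were used. Of 43629 genes, 42462 (97.3%) had a symbol.

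The counts were fitted with edgeR 4.0.16 in R 4.3.3: filterByExpr by group (minimum count 10, minimum total 15), TMM scaling, robust quasi-likelihood F test, Benjamini-Hochberg adjustment over all genes tested, and a call at an adjusted p under 0.05. All 14 IP libraries shared 1 fit, all 14 input libraries another, and all 28 were fitted together for the difference between the IP and the input change and for IP against input. In the fit of all 28, IP and input shared 1 spread per gene, although it was far smaller in input. Log2 changes are given ± SE, and levels as CPM (TMM-scaled), with mean ± SD. Log CPM for correlations used a prior count of 2. Where a whole group had 0 counts, the fold was bounded with 3 counts in the group's place; such bounds hold for counting error alone. No 2 libraries of a group agreed within sampling noise (chi-square of 25.5 to 177 per degree of freedom, 20 pairs).

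The members and gene lists were chosen with earlier results of these data known (789 list entries, 3 of them not matched in the table), so lists are described by counts and medians with no set test. Named genes were the called genes (1 of them and a few list members are not reported here), every called member of a list or otherwise its 2 members with the smallest p, Sting1, Gpx4 and Colgalt2, and the 5 genes with the smallest p in each direction of the difference between IP and input; other list members are given as examples, and further genes are marked in the text as chosen after their values were seen. Alternatives were DESeq2 1.42.0 (size factors, Wald test), no filter, a replicate block, each library left out, other sets of libraries, voom with library weights in limma 3.58.1, a mean of at least 50 CPM, leaving out libraries with under 12000 genes detected, the number of genes detected as covariate and, added after seeing the data, an offset for gene length and GC. For the difference between IP and input, the IP and the input library of a number were left out together. Promoter sequences are from RefSeq (GRCm38.p6). Plots used Python 3.11.15 and matplotlib 3.10.9.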

Additional observations from a re-analysis of the deposited data

Results flagged for a closer look

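In 68 groups of 5 libraries, made from the genes followed through every alternative, 3 held a library far from the others, where chance flags about 1 group in 20. Ifit3 in healthy IP library 2 was at 10.9 CPM, above the other healthy libraries. Pygb in healthy IP library 5 was at 71.6 CPM and Rorb, a marker of layer 4 and upper layer neurons, in acute IP library 1 was at 6.17 CPM, each below the rest of its group. The change of Nefm was larger in IP than in input by 0.82 (log2; edgeR adjusted p = 0.0492), with every acute IP library above every healthy IP library (5 against 5).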

How the results depend on the processing

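The counts of genes higher and lower in acute IP (8 and 1) moved with the method. They were 93 and 30 with the DESeq2 Wald test, 292 and 88 with voom and library weights, 1267 and 344 when all 28 libraries shared 1 fit, 14 and 4 with a mean of at least 50 CPM, and 2 and 0 with the length and GC offset. Without acute libraries 1 and 3 and healthy library 5, which had under 12000 genes detected, they were 6 and 0. With genes detected as covariate they were 10 and 5. Leaving out each library gave 1 to 39 higher (39 without acute library 1, and 1 without acute library 5 or healthy library 3) and 0 to 11 lower. The difference between the IP and the input change (1 more positive, 0 more negative) also came from a fit of all 28 libraries with 1 spread per gene. For that difference DESeq2 gave 314 and 49. Leaving out each number, IP and input together, gave 0 to 227 and 0 to 60, with 5 and 1 without healthy number 4. With a replicate block the IP counts were 2 and 0, and with IP paired with input the difference had 0. Pairing by number was not detected. Deviations of acute and healthy IP libraries with the same number correlated at -0.11 to 0.17, and 1 of 5 acute libraries correlated best with its own number. Those of IP and input with the same number correlated at -0.02 to 0.14. With the large spread in IP, such low values cannot show whether IP and input of a number share a mouse. The median log2 change of all genes, -0.04 as reported, was 0.16 with voom and -0.14 with genes detected as covariate. With DESeq2's size factors the counts were 8 and 1, and with no filter 9 and 1. The genes were not all the same: Pygb was called in both, H2-K1 lost its call with the size factors and Gfap with no filter. The input counts stayed within 1.5 times the reported ones under each alternative, and no gene named in these fits turned its direction. The spread of the IP libraries limits what could be called, and genes near 0 CPM have no stable fold. The causes of these differences were not tested.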
